A study of Mus musculus with 9 samples.

Results

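The genes described here encode the proteins of the cytosolic ribosome. They were taken by symbol from a table of FPKM (fragments counted per gene, scaled by transcript length and library total) for mouse ovary, as every Rpl or Rps gene with a number and an optional x, a or l ending, together with Rplp0, Rplp1, Rplp2 and Rpsa. Ribosomal protein S6 kinases and pseudogene symbols were left out. The rule found 80 genes among 22544 entries, 49 of the large subunit and 31 of the small subunit. Of these, 78 reached 1 FPKM in at least 3 of the 9 libraries, which was the condition for a test. The exceptions were Rpl3l and Rpl10l.

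Polyadenylated RNA of whole ovary was sequenced in 9 libraries, 3 in each of 3 groups. NC libraries came from ovaries whose labels name no treatment. The label CTX commonly stands for cyclophosphamide, an alkylating drug that damages ovarian follicles. HBOT libraries came from ovaries given CTX and hyperbaric oxygen together, per the design text of the series. The labels give no strain, age, dose or time, and do not say that the replicates are separate animals, so a p-value here measures only the spread between these samples. In whole tissue, a change in the number of cells of a type and a change in RNA per cell cannot be told apart.

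A ribosome is built from ribosomal RNA and about one copy of each ribosomal protein. The small subunit decodes the messenger RNA and the large subunit forms the peptide bonds. Most ribosomal protein messenger RNAs begin with a run of pyrimidines, the 5′ terminal oligopyrimidine or TOP motif, through which mTOR signalling and the RNA-binding protein LARP1 control their translation as a group. In the ovary, growing oocytes accumulate ribosomes that the early embryo later uses. Several free ribosomal proteins, among them RPL5 and RPL11, bind MDM2 when ribosome assembly is disturbed and so stabilise p53.

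A pyrimidine core, the letters CTTTC, stood near some annotated start sites and not others. The following windows are from RefSeq on GRCm38.p6 (the deposited values were made on GRCm39, so these coordinates serve the sequences only) and cover 40 bases before to 20 bases from the annotated start, on the strand of the gene. Capitals mark CTTTC, which the windows of Rps27l, Rps2 and Rpl26 lack. Rpl13a and Rpl7a are shown because they had small p-values in the comparisons with NC, Rps27 and Rps27l because they are paralogues with very different levels, and Rps2, Rps26 and Rpl26 because they departed from the other members.
Rpl13a, chr7:45128726-45128785, minus strand: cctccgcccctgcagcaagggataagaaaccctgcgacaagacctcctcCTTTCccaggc
Rpl7a, chr2:26910767-26910826, plus strand: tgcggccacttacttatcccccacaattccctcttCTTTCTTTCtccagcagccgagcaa
Rps27, chr3:90213629-90213688, minus strand: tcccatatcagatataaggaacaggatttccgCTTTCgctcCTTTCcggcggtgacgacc
Rps27l, chr9:66946046-66946105, plus strand: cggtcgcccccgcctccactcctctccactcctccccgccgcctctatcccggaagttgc
Rps26, chr10:128626487-128626546, minus strand: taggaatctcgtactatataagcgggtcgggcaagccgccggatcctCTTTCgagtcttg
Rps2, chr17:24720023-24720082, plus strand: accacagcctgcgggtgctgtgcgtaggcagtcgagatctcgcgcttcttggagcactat
Rpl26, chr11:68901526-68901585, plus strand: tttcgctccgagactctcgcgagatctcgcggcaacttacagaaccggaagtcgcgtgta

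Promoter sequences were matched for 60 of the 80 members, with 72 annotated starts. Within 50 bases on either side of the start, CTTTC stood on the strand of the gene at 50% of member starts, against 12.8% of 32851 starts of all genes. Counting both strands, the shares were 58.3% and 23.4%. The letters CCGGAAG, the core bound by ETS factors such as GABPA, occurred on either strand in the 300 bases around 36.1% of member starts and 8.86% of all starts. TATAAA was found on neither strand in the 50 bases before any member start, and at 3.50% of all starts. Only these exact letters were searched, so variants such as TATATAA in the printed window of Rps26 were not counted. A match of letters is a description and does not show that a factor binds there.

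The members were among the most abundant transcripts of the ovary. Over the 9 libraries, the mean of the middle member was 413 FPKM, against 11.7 FPKM for all 13338 genes compared, and 69 members exceeded 100 FPKM on average. The highest mean belonged to Rpl23a, a protein at the exit of the peptide tunnel and a landing site for the signal recognition particle. Rpl23a stood at 1201, 1058 and 1033 FPKM in NC, at 1290, 1338 and 1166 FPKM in CTX and at 1097, 1051 and 1198 FPKM in HBOT. Its groups overlapped. Rps14, Rplp1, Rps15 and Rpl13a followed, and their group means lay between 751 and 1033 FPKM. FPKM is scaled by transcript length, but that alone does not make the levels of different genes comparable. The order of members by level is a description of the listed values.

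**Figure D1:**
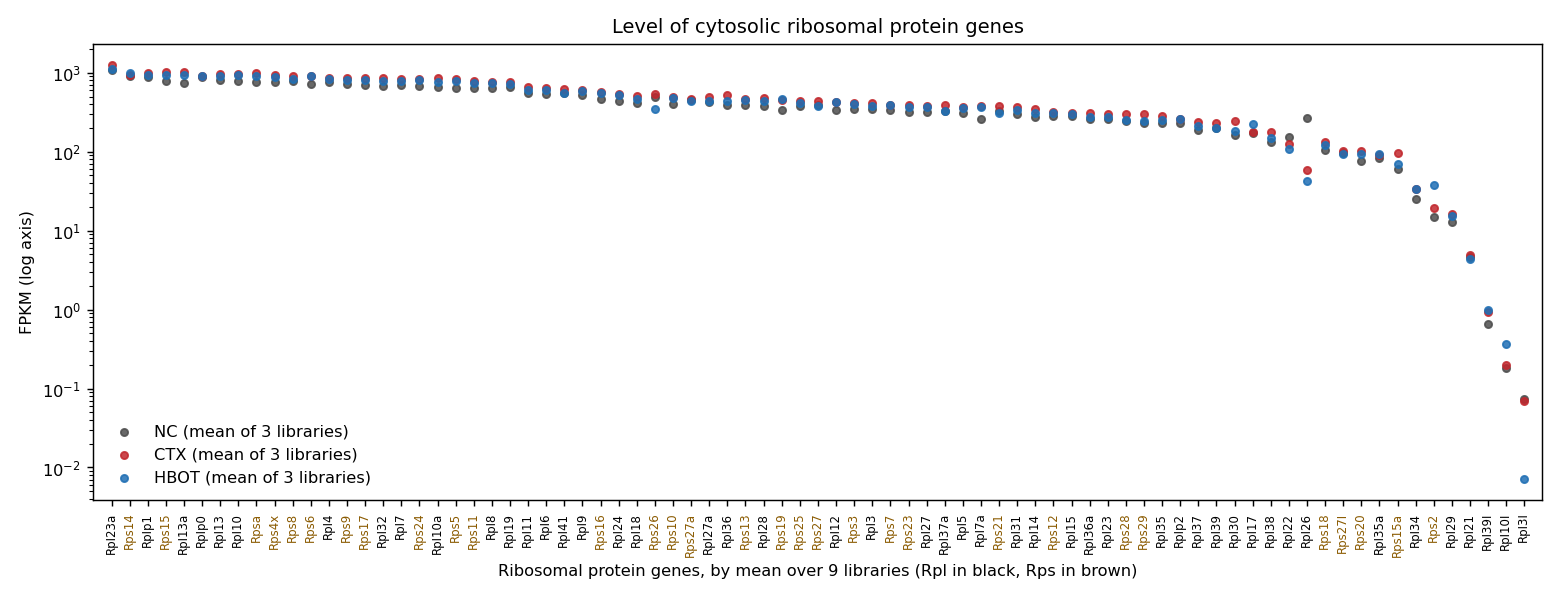
Mean FPKM of the ribosomal protein genes in the NC, CTX and HBOT libraries (3 libraries a group, log axis), ordered by the mean over 9 libraries. Most lie above 100 FPKM, and Rpl39l, Rpl10l and Rpl3l lie at the bottom.

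A few members read far below the rest. Rpl21 lay between 2.58 and 6.97 FPKM, Rpl29 between 12.1 and 19.1 FPKM, Rps2 between 12.9 and 50.1 FPKM and Rpl34 between 23.3 and 42.5 FPKM. Their proteins are constituents of the cytosolic ribosome. Ribosomal protein genes have many near-identical processed pseudogenes, and how reads shared between copies were counted is not given in the sources used here. Rps18 stood at 94.6 to 146 FPKM, while its copy Rps18-ps6, outside the rule, was listed at 388 to 525 FPKM. Levels of single members are uncertain where a copy can take reads.

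Several ribosomal proteins carry other symbols and lay outside the rule. Rps3a1, of the small subunit, averaged 886 ± 38.1 FPKM in NC, 1033 ± 81.1 FPKM in CTX and 1021 ± 66.7 FPKM in HBOT (SD, n = 3). Fau encodes a fusion of a ubiquitin-like protein with a ribosomal protein, and Rack1 is a scaffold on the small subunit. Fau averaged 412 ± 31.2, 519 ± 24.6 and 485 ± 63.3 FPKM in NC, CTX and HBOT. A list of such genes and copies, with the pseudogene symbols Rps18-ps6 and Rpl9-ps6 among its 10 entries in the table, was higher in CTX than in NC for all 10, with a median log2 difference of 0.20, and 0 passed the test.

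By library, the members shifted together. Their summed FPKM made up 8.67%, 8.08% and 8.11% of the FPKM total in the NC libraries, 10.2%, 10.2% and 8.67% in CTX and 8.88%, 8.62% and 9.63% in HBOT. CTX replicates 1 and 2 and HBOT replicate 3 were the highest, and CTX replicate 3 was level with NC replicate 1. Group means were 8.29% ± 0.332, 9.67% ± 0.869 and 9.05% ± 0.523 (SD, n = 3), so the groups overlapped in range. The summed FPKM of large subunit genes was 1.33 to 1.41 times that of small subunit genes in every library.

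The same pattern held gene by gene. Each member's log2(FPKM + 1) was set against its own mean over the 9 libraries. The median deviation of the 78 tested members was -0.05, -0.20 and -0.18 in NC, 0.20, 0.19 and -0.03 in CTX, and -0.02, -0.07 and 0.13 in HBOT. For all genes compared it was -0.03, -0.01 and 0.01 in NC, 0.08, 0.03 and -0.01 in CTX, and 0.05, -0.17 and 0.02 in HBOT. In CTX replicates 1 and 2, 71 and 76 members stood above their own mean, against 31 in CTX replicate 3. In the NC libraries 19, 3 and 6 did so, and in HBOT 26, 27 and 69.

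**Figure D2:**
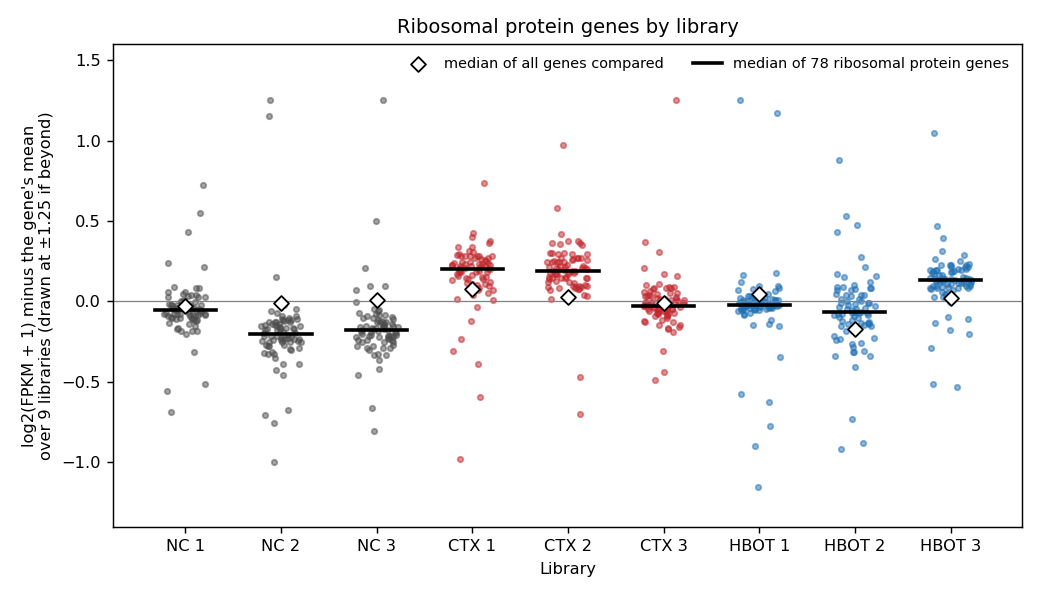
Deviation of log2(FPKM + 1) from the gene's mean over 9 libraries for the 78 tested ribosomal protein genes (points), with their median (black line) and the median of all 13338 genes compared (diamond). CTX 1, CTX 2 and HBOT 3 lie highest, with medians of 0.20, 0.19 and 0.13, and NC 2 lies lowest, at -0.20.

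Across the 9 libraries, the Pearson correlation of a member with the median of the other members was 0.87 for the middle member, with 53 of 78 above 0.8. Without CTX replicates 1 and 2, the libraries farthest from the middle, it was 0.80, with 39 above 0.8. Rpl14, Rpl6 and Rpl32, all of the large subunit, had the highest correlations. Rpl32 was 733, 661 and 650 FPKM in NC, 939, 928 and 742 FPKM in CTX and 766, 714 and 888 FPKM in HBOT. Rpl26, Rpl35a and Rps27a had the lowest, at -0.61, -0.35 and -0.07. The libraries share their scaling, so these correlations describe the table and carry no test. The same correlation was not taken for other sets of genes, so it cannot show whether the shared shift is particular to these members.

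One library stood apart over all genes. In HBOT replicate 2, 1637 genes differed by over 1 log2 unit from the mean of the remaining 8, against 173 to 347 in the others, and 9 ovulation genes summed to 920 FPKM, against 8.10 to 25.7 FPKM elsewhere. The summed share of the ribosomal protein genes there, 8.62%, was close to that of HBOT replicate 1. Other cell markers also moved between groups. The 14 oocyte markers summed to 192 to 272 FPKM in NC, 291 to 454 FPKM in CTX and 418 to 471 FPKM in HBOT, and 0 of the 14 was at 0 in any library. The 7 corpus luteum markers summed to 6140 to 8363 FPKM in NC, 2201 to 5461 FPKM in CTX and 2986 to 7095 FPKM in HBOT, and 0 of the 7 was at 0. Their median deviation was 0.73, 0.64 and 0.13 in NC and -1.10, -0.71 and 0.26 in CTX. By that measure NC and CTX overlapped. The 6 erythroid markers summed to 62.8 to 207 FPKM in NC, 387 to 816 FPKM in CTX and 317 to 735 FPKM in HBOT, with Hba-a2 at 0 in at least 1 NC library. Sums of 5 neutrophil markers were 0.792 to 1.84, 6.93 to 33.5 and 12.8 to 37.2 FPKM in the same order, with Ly6g at 0 in all NC libraries and S100a8 and Retnlg at 0 in at least 1 of them. The 7 macrophage markers, of which 0 was at 0, summed to 94.8 to 105, 121 to 163 and 118 to 184 FPKM, and the 9 lymphocyte markers, of which 0 was at 0, to 3.17 to 4.85, 9.31 to 15.9 and 7.47 to 13.9 FPKM. Of the markers, 4 of 9 lymphocyte, 4 of 5 neutrophil, 5 of 6 erythroid and 3 of 9 ovulation genes reached the condition for a test. The part of these cell types in the levels of the ribosomal protein genes was not tested.

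In CTX against NC, most ribosomal protein genes read slightly higher, and 0 passed the test. Of the 78 tested, 75 had a higher mean of log2(FPKM + 1) in CTX and 3 a lower one, where 59.5% of all genes were higher. The median log2 difference was 0.27, a fold of 1.20, against 0.05 for all genes. The adjusted p of limma, taken over all 13338 genes, was under 0.05 for 0% of genes, and the smallest among the members was 0.360. At an unadjusted p under 0.05, 34 members were higher and 1 was lower, where 5.24% of all genes were higher and 2.74% lower. The libraries of the 2 groups did not overlap for 41 members, all higher in CTX, where 13.2% of all genes lay wholly above NC and 7.8% wholly below. Most members rose and fell together across libraries. Such counts, in this and the other comparisons, are therefore not made of independent results.

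The count at an unadjusted p under 0.05 changed with the library left out. Such a fit also has fewer libraries from which to estimate the spread. The 34 members became 9 without NC replicate 2, 14 without NC replicate 3, 11 without CTX replicate 1, 13 without CTX replicate 2 and 55 without CTX replicate 3, and were 37 without HBOT replicate 2. The count of members with separate groups became 66 without CTX replicate 3, where the share of all genes wholly above NC became 23.0%. Leaving out a library cannot lower such a count. After a correction for transcript length and GC content, 11 members were higher at an unadjusted p under 0.05 and 21 lay wholly above NC, where 8.75% of all genes did. Members are short, with a median transcript length of 689 bases against 2132 bases for all genes compared. Among other genes of up to 800 bases, the median log2 difference was 0.07.

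The smallest p-value belonged to Rpl13a, a large subunit protein that also acts outside the ribosome in the interferon-gamma response of myeloid cells. Rpl13a (ENSMUSG00000074129) stood at 842, 759 and 652 FPKM in NC and at 1095, 1040 and 962 FPKM in CTX, with 943, 869 and 995 FPKM in HBOT. Every CTX and HBOT library lay above every NC library. The log2 difference of CTX against NC was 0.46 (SE 0.12, limma adjusted p = 0.360).

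Rps20, a protein of the small subunit head, stood at 84.0, 71.2 and 73.3 FPKM in NC and at 105, 103 and 93.7 FPKM in CTX. Its groups were separate, with a log2 difference of 0.40 (SE 0.11, limma adjusted p = 0.384).

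Only 3 tested members, Rpl26, Rpl22 and Rps27a, had a lower mean of log2 values in CTX, and in each the libraries of the groups overlapped. Rpl26 binds the p53 messenger RNA after DNA damage in addition to its place at the tunnel exit. It stood at 47.9, 357 and 386 FPKM in NC and at 65.9, 55.8 and 55.1 FPKM in CTX. NC replicate 1 thus read like the CTX libraries, and the log2 difference of -1.66 had an SE of 0.68 (limma adjusted p = 0.604). Rpl22, a target of recurrent loss in some tumours, stood at 185, 95.8 and 178 FPKM in NC and at 134, 127 and 112 FPKM in CTX (log2 difference -0.24, SE 0.23).

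**Figure D3:**
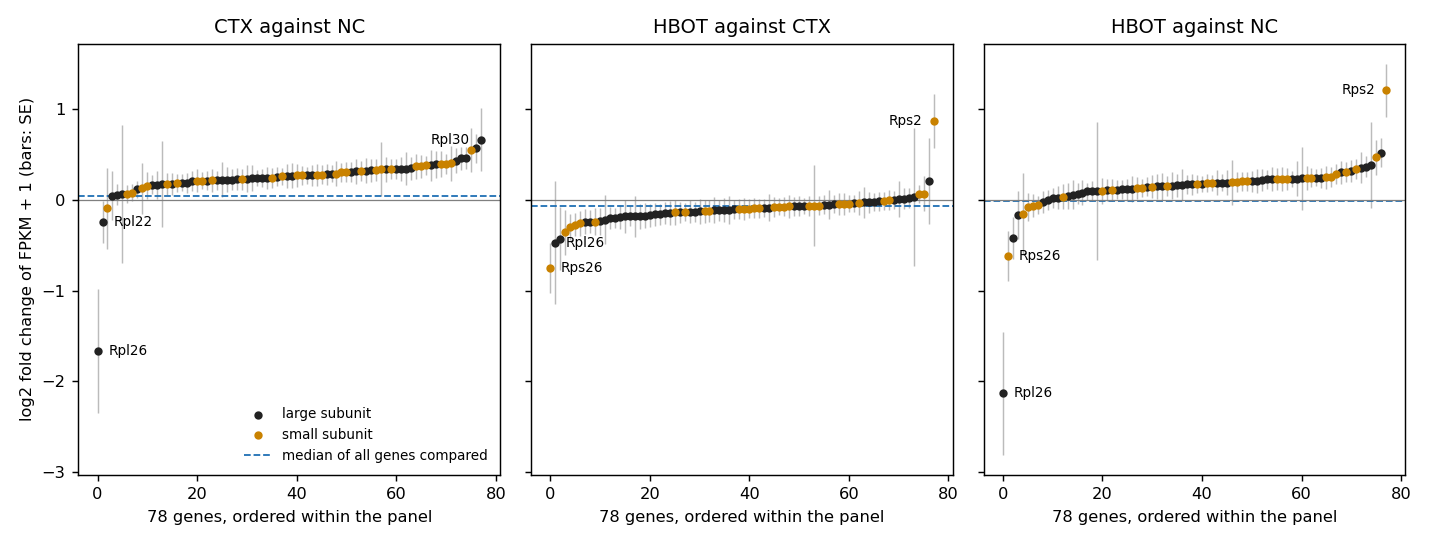
Log2 fold change of FPKM + 1 with its limma standard error for the 78 tested ribosomal protein genes in each comparison, ordered within the panel, with the median of all genes compared (dashed line). CTX against NC has 75 genes above 0, HBOT against CTX has 9 and HBOT against NC has 68, and Rpl26 and Rps2 lie at the lower and upper edge of HBOT against NC.

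By subunit, 45 of 47 large subunit genes and 30 of 31 small subunit genes were higher in CTX, with median log2 differences of 0.25 and 0.28. The difference between the subunits was not tested. A list of 15 small subunit genes, most of them for the head that moves during translocation, with Rps2 and Rpsa of the adjoining body, was higher in CTX for all 15, with a median of 0.33. Of the 15, 10 had separate groups, as did 41 of all 78 members and 13.2% of all genes. Large subunit genes for proteins at the peptide tunnel, its exit and some neighbours were higher for 10 of 12, with a median of 0.21. Genes mutated in Diamond-Blackfan anaemia, an inherited failure of red cell production, were higher for 18 of 19, with a median of 0.27. None of these members passed the test, at 0 of 15, 0 of 12 and 0 of 19.

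The P stalk recruits and activates the translation GTPases. Its base, Rplp0, is widely used as a reference gene in PCR. Rplp0 stood at 927, 867 and 821 FPKM in NC, at 943, 992 and 797 FPKM in CTX and at 883, 873 and 995 FPKM in HBOT. The groups overlapped, and the log2 difference of CTX against NC was 0.06 (SE 0.12), which turned to -0.10 under quantile scaling, -0.06 after correction for length and GC content and -0.0059 without CTX replicate 2. Rplp1 and Rplp2 differed by 0.17 (SE 0.15) and 0.19 (SE 0.09).

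RPL5 and RPL11 join the 5S ribosomal RNA in the particle that inhibits MDM2. Rpl5 stood at 324, 306 and 289 FPKM in NC, at 395, 364 and 331 FPKM in CTX and at 366, 336 and 377 FPKM in HBOT. Every CTX and HBOT library lay above every NC library, with a log2 difference of CTX against NC of 0.24 (SE 0.10, limma adjusted p = 0.612). Rpl11 stood at 576, 536 and 549 FPKM in NC and at 702, 699 and 575 FPKM in CTX, and its groups overlapped (log2 difference 0.25, SE 0.12).

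Other members with known single roles fell in the same range. Rps6, the substrate of S6 kinase that is used to read mTOR activity, stood at 728, 706 and 709 FPKM in NC, at 1019, 893 and 815 FPKM in CTX and at 854, 909 and 952 FPKM in HBOT. All treated libraries lay above NC, with a log2 difference of CTX against NC of 0.34 (SE 0.11, limma adjusted p = 0.452). Rpsa, which doubles as a laminin receptor, differed by 0.37 (SE 0.13), and Rpl38, needed for the translation of Hox messenger RNAs in the embryo, by 0.43 (SE 0.14). Rps3, which also has DNA repair activity, differed by 0.21 (SE 0.10), and Rpl41, the shortest ribosomal protein, by 0.19 (SE 0.11). The adjusted p of each was above 0.05.

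Several members have a related copy, and the level of the copy in the ovary differed between them. Rpl3l, a copy used in heart and skeletal muscle, was listed between 0 and 0.170 FPKM in the 9 libraries, while Rpl3 averaged 343 ± 17.8, 408 ± 69.3 and 375 ± 40.8 FPKM in NC, CTX and HBOT (SD, n = 3). Rpl10l, a copy used in male germ cells, lay between 0.0392 and 0.753 FPKM, highest in HBOT replicate 2, against 748 to 1040 FPKM for Rpl10 on the X chromosome. Rpl39l lay between 0.464 and 1.48 FPKM, just inside the condition for a test, against 172 to 242 FPKM for Rpl39. Rps27l, a p53 target, and Rpl22l1, the copy of Rpl22 outside the rule, were well expressed. Rpl22l1 averaged 126 ± 8.91, 132 ± 17.4 and 131 ± 14.9 FPKM in NC, CTX and HBOT, against 153 ± 49.5, 124 ± 11.1 and 109.7 ± 8.82 FPKM for Rpl22 (SD, n = 3).

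Rps27l stood at 101, 88.9 and 103 FPKM in NC, at 98.5, 109 and 102 FPKM in CTX and at 96.1, 88.0 and 97.6 FPKM in HBOT. The groups NC and CTX overlapped, with a log2 difference of 0.08 (SE 0.10). Rps27 stood at 426, 396 and 362 FPKM in NC and at 431, 494 and 399 FPKM in CTX, with a log2 difference of 0.16 (SE 0.15). CTTTC stands in the printed window of Rps27 and not in that of Rps27l. Rps27l has 2 annotated starts and Rps27 has 1, and the window of only 1 start was printed for each.

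In HBOT against CTX, the ribosomal protein genes were slightly lower, by little more than the rest of the table, and 0 of 78 passed the test. Here 69 members were lower in HBOT and 9 higher, with a median log2 difference of -0.10, where 38.4% of all genes were higher. For all genes the median was -0.07, and among other genes of up to 800 bases it was -0.12. With the correction for length and GC content the members' median became 0.03, with 51 of 78 higher, so the direction of the median turned with that correction. With median-of-ratios scaling the median stayed below 0, at -0.03, with 30 higher. The share of all genes with a limma adjusted p under 0.05 was 0%. At an unadjusted p under 0.05, 1 member was higher and 1 lower, where 2.41% of all genes were higher and 3.67% lower. The groups were separate for 1 member above and 2 below, where 3.76% of all genes lay above and 6.44% below. The 9 higher members became 19 without CTX replicate 1, 14 without CTX replicate 2, 16 without HBOT replicate 1 and 6 without CTX replicate 3, and were 12 without HBOT replicate 2. The lower members at an unadjusted p under 0.05 became 10 without HBOT replicate 3 and 4 without CTX replicate 3. The comparison shares its CTX libraries with CTX against NC, so the opposite signs of the medians are not independent of each other.

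The lower member was Rps26, mutated in Diamond-Blackfan anaemia and in contact with the messenger RNA at the exit channel. Rps26 (ENSMUSG00000025362) stood at 581, 587 and 456 FPKM in CTX and at 257, 239 and 536 FPKM in HBOT, with 519, 488 and 469 FPKM in NC. HBOT replicates 1 and 2 lay below every other library, and HBOT replicate 3 lay inside the CTX range. The log2 difference was -0.75 (SE 0.28, limma adjusted p = 0.710). It ranged from -1.12 to -0.53 over the alternatives.

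The higher member was Rps2, a small subunit protein near the messenger RNA entry. Rps2 (ENSMUSG00000044533) stood at 17.3, 25.4 and 15.7 FPKM in CTX and at 50.1, 40.7 and 22.1 FPKM in HBOT, with 14.4, 12.9 and 17.6 FPKM in NC. HBOT replicates 1 and 2 were again the ones that differed, while HBOT replicate 3 lay inside the CTX range. The log2 difference was 0.87 (SE 0.29, limma adjusted p = 0.710). Rps2 is one of the members that read far below the rest, and the part of near-identical copies in its level was not tested.

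Rps14, on the contrary, differed little but had separate groups, at 916, 958 and 943 FPKM in CTX and 968, 984 and 994 FPKM in HBOT, with a log2 difference of 0.07 (SE 0.10). Rpl17, at 134, 226 and 176 FPKM in CTX and 139, 164 and 366 FPKM in HBOT, differed by 0.21 (SE 0.48), which turned to -0.21 without HBOT replicate 3. Rps21 and Rps29, both short small subunit proteins, differed by -0.27 (SE 0.13) and -0.30 (SE 0.14), and their groups overlapped. The members wholly below CTX in HBOT were Rpl26 and Rps27l, named here after their values were seen.

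In HBOT against NC, 68 of 78 members were higher and 10 lower, where 47.6% of all genes were higher, and 0 members passed the test. The median log2 difference was 0.17, against -0.01 for all genes and -0.04 for other genes of up to 800 bases. The share of all genes with a limma adjusted p under 0.05 was 0%. At an unadjusted p under 0.05, 13 members were higher and 1 lower, where 6.22% of all genes were higher and 5.65% lower. The groups were separate for 33 members, all above NC, where 10.9% of all genes lay above and 9.6% below. The 13 became 4 without NC replicate 2, 4 without NC replicate 3, 7 without HBOT replicate 1, 5 without HBOT replicate 3 and 13 without HBOT replicate 2, and 6 under quantile scaling. The count with separate groups became 50 without NC replicate 1 and 46 without HBOT replicate 2. In those settings, 12.9% and 23.6% of all genes lay wholly above NC. Leaving out a library cannot lower the count of members with separate groups. It became 20 under median-of-ratios scaling and 17 under quantile scaling, where 10.2% and 10.85% of all genes did. This comparison shares its NC libraries with CTX against NC.

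Rps2 had the smallest p, with a log2 difference of 1.21 (SE 0.29, limma adjusted p = 0.267), and each of its HBOT libraries lay above each NC library. Rpl12, of the base of the P stalk, stood at 364, 318 and 318 FPKM in NC and at 401, 442 and 449 FPKM in HBOT, with separate groups and a log2 difference of 0.37 (SE 0.11, limma adjusted p = 0.325). Rpl7a, a large subunit protein, stood at 293, 197 and 298 FPKM in NC, at 375, 368 and 412 FPKM in CTX and at 351, 371 and 392 FPKM in HBOT. All treated libraries of Rpl7a lay above NC, and NC replicate 2 was the lowest. Its log2 difference was 0.52 (SE 0.16, limma adjusted p = 0.328) for HBOT against NC and 0.57 (SE 0.16, limma adjusted p = 0.384) for CTX against NC.

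On the lower side, Rpl26 stood at 34.4, 40.8 and 53.4 FPKM in HBOT, with a log2 difference from NC of -2.13 (SE 0.68, limma adjusted p = 0.332). Rps26 differed by -0.62 (SE 0.28) and Rpl22 by -0.42 (SE 0.23), and the groups overlapped for all 3. Rpl22 stood at 119, 101 and 109 FPKM in HBOT, all above the 95.8 FPKM of NC replicate 2.

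Of the 78 tested members, 11 had a highest library over 2 times the lowest, a set chosen after the values were seen. The middle member had a ratio of 1.45. Among genes with a mean of at least 100 FPKM, 6 of 69 members (8.70%) exceeded 2, against 134 of 472 other genes (28.4%). Without HBOT replicate 2 the other genes came to 16.3%, and the members stayed at 8.70%, while the median ratio was 1.39 for the members and 1.40 for the other genes. Several of the 11 took a high and a low level that did not follow the groups.

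Rpl26 was the widest, with 386 FPKM in NC replicate 3 and 34.4 FPKM in HBOT replicate 1, a ratio of 11.2. NC replicates 2 and 3 were high, and the other 7 libraries lay between 34.4 and 65.9 FPKM. Without NC replicate 1, Rpl26 passed the test, at -2.64 in CTX against NC (limma adjusted p = 0.0122) and -3.11 in HBOT against NC (limma adjusted p = 0.00358). Over all alternatives the adjusted p ranged from 0.0122 to 0.99988 and from 0.00358 to 0.718.

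Rpl35a, mutated in Diamond-Blackfan anaemia, was high in 1 library of each group. It stood at 49.6, 160 and 40.4 FPKM in NC, at 46.8, 43.6 and 181 FPKM in CTX and at 185, 42.6 and 49.7 FPKM in HBOT. The 3 high libraries lay between 160 and 185 FPKM and the 6 others between 40.4 and 49.7 FPKM, with nothing between. The groups overlapped, at 83.3 ± 66.4, 90.4 ± 78.3 and 92.5 ± 80.3 FPKM (SD, n = 3). Its log2 difference of CTX against NC, 0.07 (SE 0.76), changed sign with the library left out.

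Rps27a, a fusion of ubiquitin with a small subunit protein that supplies both, was low in 1 library of CTX and 1 of HBOT. It stood at 498, 408 and 459 FPKM in NC, at 217, 640 and 554 FPKM in CTX and at 229, 498 and 592 FPKM in HBOT. CTX replicate 1 and HBOT replicate 1 read 217 and 229 FPKM, and the other 7 libraries lay between 408 and 640 FPKM. The log2 difference of CTX against NC was -0.09 (SE 0.45), which became 0.39 without CTX replicate 1.

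Rps15a, of the small subunit, was high in 1 library only, at 143 FPKM in CTX replicate 2 against 57.3 to 75.2 FPKM in the other 8. Rpl30 stood at 251, 116 and 117 FPKM in NC, at 310, 224 and 196 FPKM in CTX and at 124, 184 and 244 FPKM in HBOT. Rpl17 ranged from 87.8 FPKM in NC replicate 2 to 366 FPKM in HBOT replicate 3. Rps26, Rps2, Rpl7a and the low members Rpl21 and Rpl39l complete the 11. The cause of these levels was not tested.

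**Figure D4:**
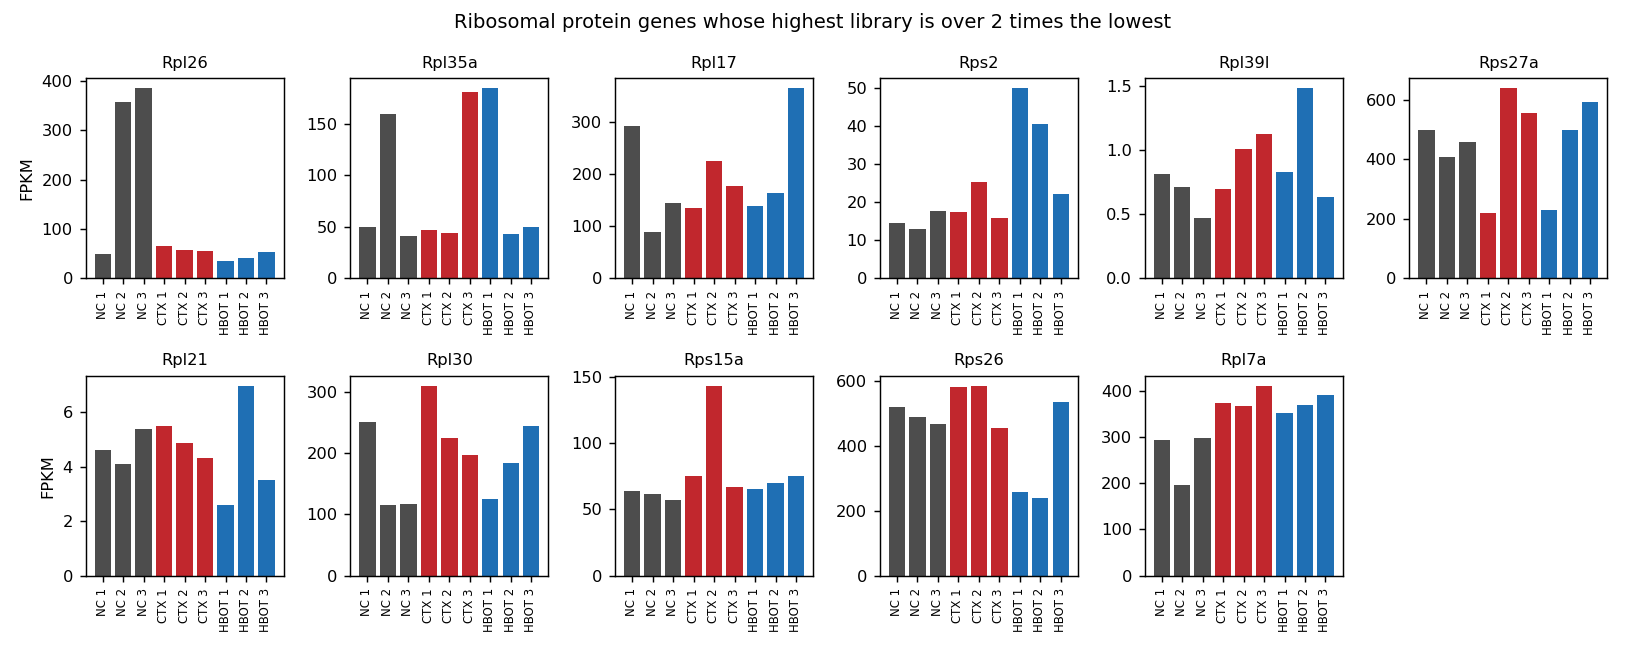
FPKM in each of the 9 libraries for the 11 tested ribosomal protein genes whose highest library is over 2 times the lowest (bars from 0, each panel on its own scale). Rpl26 is high in NC 2 and NC 3, Rpl35a in 1 library of each group, Rps27a is low in CTX 1 and HBOT 1, and Rps26 is low in HBOT 1 and HBOT 2.

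Other genes of the translation machinery gave smaller medians in CTX against NC, and 0 passed the test in any of the lists that follow. Of 21 translation factors and related genes with TOP motifs, 14 were higher, with a median log2 difference of 0.06. This list holds Fau and Rack1. Of 21 initiation factors 8 were higher, with a median of -0.04, and of 24 genes of mTOR and TOP control 10 were higher, with a median of -0.03. Of 50 ribosome biogenesis genes 40 were higher, with a median of 0.14, and of 14 RNA polymerase I genes, which make the ribosomal RNA precursor, 10 were higher, also with a median of 0.14. Among 13 chaperones and importers of ribosomal proteins 10 were higher, with a median of 0.09. The 78 mitochondrial ribosomal protein genes, which build a separate ribosome inside the organelle, were higher for 60, with a median of 0.10. Of all genes, 59.5% were higher in this comparison. The differences between the lists were not tested.

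In HBOT against CTX, 43 of 50 biogenesis genes and 16 of 21 initiation factors were higher, with medians of 0.10 and 0.13. By contrast, 71 of 78 mitochondrial ribosomal protein genes were lower, with a median of -0.19. Of all genes, 38.4% were higher. HBOT replicate 2 differed most in these lists. Its median deviation was 0.47 for biogenesis genes, 0.39 for initiation factors and -0.31 for mitochondrial ribosomal protein genes, against -0.07 for the cytosolic ribosomal protein genes. In HBOT replicates 1 and 3 the biogenesis genes lay at -0.06 and -0.09.

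The oocyte markers gave another order of libraries than the ribosomal protein genes. Their median deviation was -0.27, -0.71 and -0.39 in NC, 0.29, 0.38 and -0.26 in CTX and 0.30, 0.40 and 0.27 in HBOT. In both sets NC replicate 2 was lowest and CTX replicate 3 was the lowest of CTX. All 3 HBOT libraries were high for the oocyte markers, while the ribosomal protein genes were above 0 only in HBOT replicate 3.

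**Figure D5:**
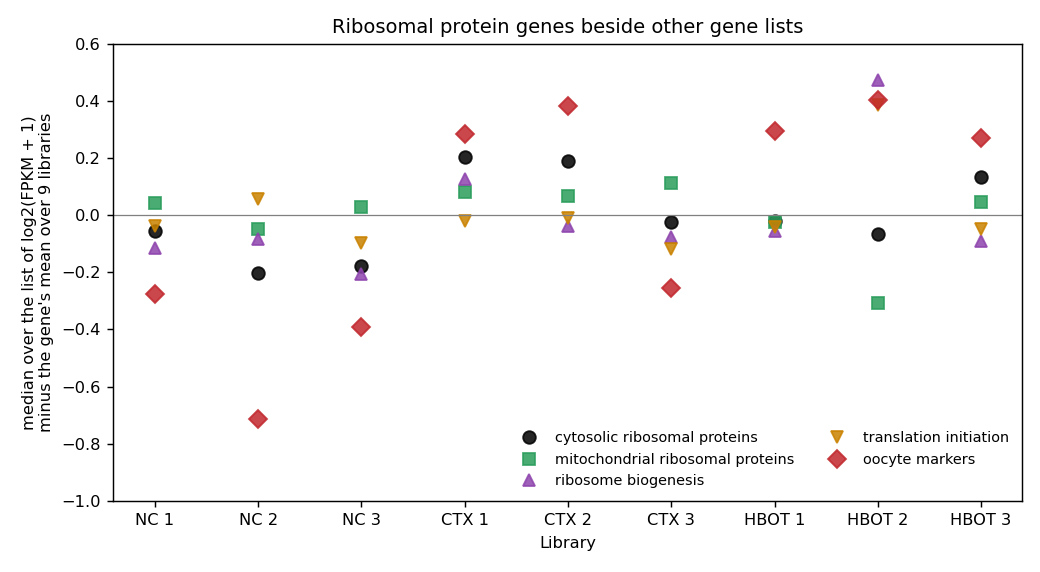
Median deviation of log2(FPKM + 1) from each gene's mean over 9 libraries, by library, for cytosolic ribosomal protein genes, mitochondrial ribosomal protein genes, ribosome biogenesis genes, translation initiation factors and oocyte markers. The cytosolic ribosomal protein genes are highest in CTX 1 and CTX 2, at 0.20 and 0.19, and biogenesis genes are highest in HBOT 2, at 0.47.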

How the data were processed

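FPKM of 9 libraries were read from the single table that the authors deposited. The tool fastp 0.23.4 and the genome build GRCm39 (mm39) are listed per the submitters' processing notes. For the aligner, the counting program, the annotation and the handling of reads that match several places, the step is not given in the sources used here. Per the labels' protocols, oligo(dT) beads enriched polyadenylated RNA, which was sequenced in pairs. Columns were matched to samples by name, and 0 stayed unmatched. Without counts the read depth is unknown, count methods were not used, and only the spread between libraries shows the precision.

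On the scale log2(FPKM + 1), the 13338 genes that reached 1 FPKM in 3 or more libraries were fitted with limma 3.58.1 in R 4.3.3 (3 groups, 6 residual degrees of freedom, eBayes with trend), and Benjamini-Hochberg adjustment covered all of these genes, with a call at an adjusted p under 0.05. A fold change on this scale understates the change of low genes. Library totals, medians and correlations are descriptions without a test. The ribosomal protein genes and all lists were chosen with earlier results of these data known. Genes were named when among the 3 members of smallest p in each direction, the 5 of highest mean, those below the filter, members of fixed role groups, or the 3 of highest and 3 of lowest correlation, and 1 gene that this rule names is not reported here. Transcript lengths and GC content were from GENCODE M21, matched by Ensembl identifier for 97.9% of genes, and promoter windows from RefSeq. The fit was tested on simulated data with independent noise for each gene and no shifts shared between genes. The planted changes were larger than the median differences of the members, so differences of that size were not tried. Alternatives were another pseudocount, other filters and scalings, a length and GC correction with a lowess span of 0.3, library weights, eBayes without trend, the 2 groups compared only, a replicate block, and each library left out in turn. Tables were made with pandas 2.3.3 and numpy 2.4.6, and figures with matplotlib 3.10.9, in Python 3.11.15.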

Additional observations from a re-analysis of the deposited data

How the results depend on the processing

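In all 3 comparisons 0 genes passed the test, and so 0 ribosomal protein genes, and under most alternatives this stayed so. In CTX against NC, 123 genes passed with library weights, which put least weight on HBOT replicate 2, and 31 with the 2 groups only, with 0 ribosomal protein genes among them. In HBOT against CTX, 1 gene passed without a filter and 5 with weights, and in HBOT against NC 1 and 181. The cause was not tested. Leaving out each library in turn gave 0 to 9, 0 to 1 and 0 to 3 genes, of which 0 to 1, 0 and 0 to 1 were ribosomal protein genes. Their median log2 difference was 0.19 to 0.27 in CTX against NC and 0.11 to 0.21 in HBOT against NC over the other alternatives, and 0.22 to 0.34, -0.17 to -0.06 and 0.12 to 0.22 with libraries left out. In HBOT against CTX it reversed to 0.026 with the length and GC correction.

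Members higher at an unadjusted p under 0.05 in CTX against NC numbered 15 with median-of-ratios scaling, 18 with quantile scaling, 11 with the length and GC correction and 9 to 55 with libraries left out. Those lower numbered 0 with no filter, library weights or the 2 groups only, and 0 to 1 with libraries left out. Members with separate groups numbered 21 with the length and GC correction (8.75% of all genes). They numbered 41 to 66 with libraries left out (17.0% to 23.2% of all genes). Leaving out a library can only keep or raise a count of separate groups. The lower ends of such ranges, here and below, were therefore fixed in advance. In HBOT against CTX, members with a positive difference numbered 30 (median-of-ratios scaling) and 51 (length and GC correction), and 6 to 19 with libraries left out. Counts at an unadjusted p under 0.05 there were 0 to 1 higher and 0 to 10 lower with libraries left out, and 2 lower with quantile scaling and 3 with weights. Separate groups above CTX numbered 0 with median-of-ratios and quantile scaling and 1 to 2 with libraries left out. In HBOT against NC, 6 members were higher at an unadjusted p under 0.05 with quantile scaling and 4 to 16 with libraries left out. Those lower numbered 2 with TPM, median-of-ratios or quantile scaling or the length and GC correction, 3 with weights and 1 to 2 with libraries left out. Separate groups numbered 20 and 17 with median-of-ratios and quantile scaling (10.2% and 10.85% of all genes), and 33 to 50 with libraries left out (12.9% to 23.6%).

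Signs turned for Rplp0 in CTX against NC (-0.10 with quantile scaling, -0.058 with the length and GC correction, -0.0059 to 0.15 with libraries left out), for Rps27a (0.14 with weights, -0.38 to 0.39 with libraries left out, highest without CTX replicate 1), for Rpl35a (-0.024 with weights, -0.59 to 0.67 with libraries left out, below 0 without NC replicate 1, NC replicate 3 or CTX replicate 3), and for Rpl17 in HBOT against CTX (-0.21 without HBOT replicate 3, up to 0.48 without HBOT replicate 1). The mean share of the FPKM total was 9.03%, 10.6% and 10.0% in NC, CTX and HBOT without mitochondrially encoded genes. With ribosomal proteins of other symbols added it was 8.79% in NC, 10.2% in CTX and 9.60% in HBOT. With single libraries left out it was 8.09% to 8.39%, 9.42% to 10.2% and 8.75% to 9.26%.

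Same-numbered libraries had correlations of deviations from their group means of -0.29 to 0.16. Differently numbered libraries were not compared in this way, so these values cannot decide whether replicate numbers pair the samples. With the replicate number as a block, 7 members were higher at an unadjusted p under 0.05 in HBOT against NC and 27 in CTX against NC, and 0 passed the test. The depth behind each FPKM is unknown, so counting error cannot be given, and 3 libraries a group limit what these fits could detect.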
